A study of Mus musculus with 18 samples.

Results

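The genes described here are those of glycolysis, of its supply and outlets, and of the transcriptional response to low oxygen, in MLg 2908 fibroblasts that did or did not invade a collagen gel. The 41 members were listed by gene symbol: 17 glycolytic enzymes, 4 glucose and lactate transporters, 4 pyruvate dehydrogenase kinases, 2 enzymes that set fructose 2,6-bisphosphate, 4 HIF subunits and oxygen sensors, and 10 other genes of the hypoxia response. Of these, 38 had a probe set that carries exactly 1 gene symbol, of 19938 such genes in all, and each is given by the brightest of its probe sets. Gpi1, Eno1 and Gapdh are the other 3 and have no value here. RNA of MLg 2908, 1 established line from the lung of newborn ddY mice of wild-type genotype, was hybridized in 18 samples to Mouse Gene 1.0 ST arrays of Affymetrix. Cells plated on top of a collagen gel were separated into an invading fraction, taken from within the gel, and a non-invading fraction, left on its surface, after 96 hours (5 invading and 5 non-invading samples) or after 72 hours (4 and 4). The treatment entry of all 18 samples lists TGFB1 beside the invasion assay. The titles give no treatment, however, and the study's text describes the cells of the arrays as invading spontaneously. Its heatmaps of these arrays are marked as non-treated at both times. The treatment entry and the study thus disagree on whether TGFB1 was present, and the entry is the same in all groups. The labels call the samples biological replicates of each group.

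Glycolysis breaks glucose down to pyruvate. Glucose enters through transporters such as Slc2a1 (GLUT1), is trapped by hexokinases, and passes the committed step at phosphofructokinase, which fructose 2,6-bisphosphate activates. Pyruvate is either reduced to lactate by lactate dehydrogenase and exported by monocarboxylate transporters, or oxidized in mitochondria through pyruvate dehydrogenase, which the kinases Pdk1 to Pdk4 inhibit. In low oxygen the prolyl hydroxylases Egln1 to Egln3 no longer mark the subunits HIF-1alpha (Hif1a) and HIF-2alpha (Epas1) for degradation, and the stabilized factors induce many glycolytic genes, Vegfa, Bnip3, Egln3 and others. HIF-1alpha is controlled mainly through its protein, which these arrays do not measure.

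Every value is a log2 signal, and a log2 ratio is the difference between the means of 2 groups, so that a log2 ratio of 0.55 is a ratio of 1.47. A gene was called higher or lower where limma gave an adjusted p under 0.10 over all probe sets. The fibroblast label was checked against its markers. Col1a1, Col1a2, Col3a1, Pdgfra, Pdgfrb, Vim, Fn1 and Dcn had group means of 11.8 to 13.6, while Thy1 and Fap, also on that list, were dim. The 15 epithelial, endothelial and leukocyte markers had group means of 4.01 to 7.88. Of these markers Krt8 was higher in the invading fraction at both times (log2 ratio 0.32 at 96 hours and 0.53 at 72 hours), Cd68 was higher at 96 hours (log2 ratio 0.56), and Epcam and Cdh1 had log2 ratios of 0.18 and 0.15 there; their part in the results below was not tested. In bulk RNA, a change in how many cells express a gene and a change in the RNA per cell cannot be told apart. The array medians lay at 6.46 to 6.54 in the invading samples and 6.54 to 6.65 in the non-invading ones, so the scaling bears on the counts. With every array centred on its median signal, the median log2 ratio over all genes was 0.143 at 96 hours and 0.118 at 72 hours, against 0.024 and 0.038 in the values as deposited.

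At 96 hours most of the members called were higher in the invading fraction, and 13 of the 16 higher ones belonged to glucose metabolism. Of 38 measured members 16 were higher in the invading than in the non-invading fraction (42.1%, against 16.7% of all genes) and 3 were lower (7.89%, against 14.7% of all genes). At 72 hours 7 members were higher (18.4%, against 13.0% of all genes) and 3 lower (7.89%, against 13.5%), so the share at 72 hours stood close to that of all genes. The median log2 ratio of the members was 0.134 at 96 hours and 0.096 at 72 hours, against 0.024 and 0.038 over all genes. The groups did not overlap for 11 members at 96 hours, 8 with every invading sample above and 3 with every invading sample below (9.35% and 8.80% of all genes), and for 10 at 72 hours, 6 above and 4 below (12.5% and 12.3% of all genes). After centring, 27 members were higher and 2 lower at 96 hours, against 45.7% and 7.92% of all genes, and 16 and 1 at 72 hours, against 25.2% and 9.35%. After a further quantile normalization the counts were 21 and 5 at 96 hours (38.6% and 12.5% of all genes) and 13 and 4 at 72 hours (25.3% and 11.7%). The shares over all genes include genes of dim signal. The array medians lie near a linear signal of 100 (log2 6.64), and 2 members stayed at or below that limit in every sample. Shares among brighter genes alone were not counted.

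Split by role, 9 of 14 glycolytic enzymes were higher at 96 hours and 0 lower, and at 72 hours 4 were higher and 1 was lower. Over all 24 members of glucose metabolism, from transporters to kinases, 13 were higher at 96 hours and 1 was lower, with 5 and 2 at 72 hours. After centring 12 glycolytic enzymes were higher and 0 lower at 96 hours and 7 and 0 at 72 hours. After quantile normalization they were 9 and 1 at 96 hours and 5 and 1 at 72 hours. The shares of all genes under these scalings are those given above. The 14 members of the hypoxia response had 3 higher and 2 lower at 96 hours, with 2 and 1 at 72 hours, shares of 21.4% and 14.3% higher against 16.7% and 13.0% of all genes. Scaling moved these counts too. After centring, 3 of 4 HIF subunits and sensors and 6 of 10 other hypoxia response genes were higher at 96 hours (0 and 1 lower). At 72 hours 1 and 4 were higher (0 and 0 lower). After quantile normalization 2 and 4 were higher at 96 hours (1 and 2 lower), and 1 and 3 at 72 hours (0 and 2 lower). Hk2, Pfkl, Pfkm, Pkm, Pdk2 and Ddit4 were higher at both times, Pdk3 and P4ha1 were lower at both times, and no member was called in opposite directions. Called at 96 hours alone were 10 higher members (Pfkp, Aldoa, Tpi1, Pgk1, Pgam1, Slc2a1, Pdk4, Pfkfb3, Egln3 and Bnip3) and 1 lower (Egln1), at 72 hours alone 1 higher (P4ha2) and 1 lower (Ldha), and 17 members were called at neither time. How many of all genes were called at both times, at 1 or at neither was not counted. These counts thus do not show whether the members differ from other genes in this.

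**Figure D1:**
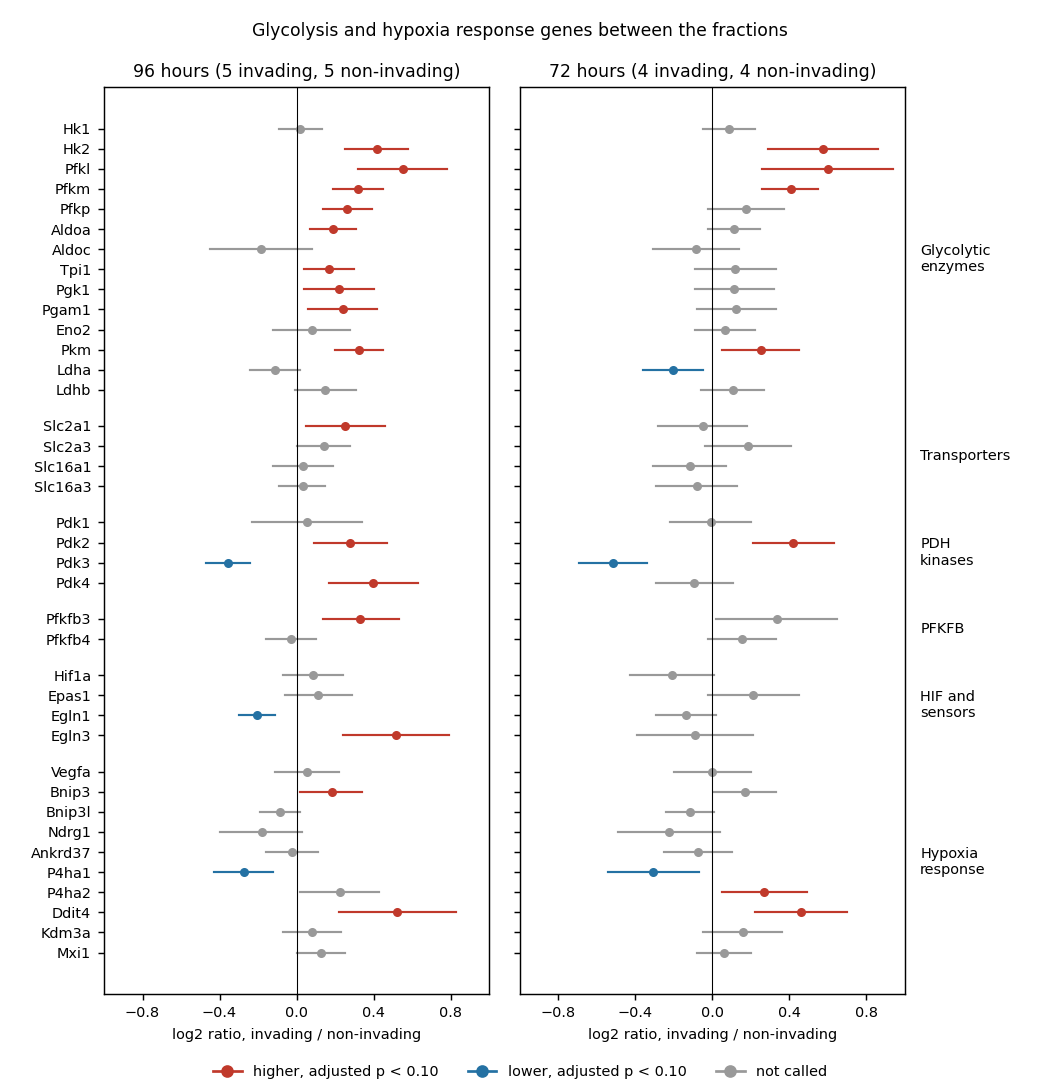
Log2 ratio of the invading over the non-invading fraction for the 38 measured members (points) with 95% confidence intervals (bars), by role, at 96 hours on the left and 72 hours on the right. Of the 14 glycolytic enzymes at the top, 9 are called higher and 0 lower at 96 hours.

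Among the enzymes that trap glucose, Hk2, the inducible hexokinase, was higher in invading cells at both times. Its signals were 8.04, 8.02, 7.89, 8.10 and 7.71 in the invading samples of 96 hours, against 7.45, 7.54, 7.56, 7.50 and 7.62 in the non-invading ones. At 72 hours they were 8.10, 8.12, 7.91 and 8.02 in the invading samples of 72 hours, against 7.84, 7.41, 7.25 and 7.35 in the non-invading ones. Every invading sample lay above every non-invading one at each time (log2 ratio 0.42, SE 0.075, adjusted p = 0.002 at 96 hours; log2 ratio 0.57, SE 0.12, adjusted p = 0.013 at 72 hours). Hk1, the ubiquitous hexokinase, gave different answers by probe set. The brightest probe set, by which the gene is given here, had log2 ratios of 0.02 at 96 hours and 0.08 at 72 hours (adjusted p = 0.85 and 0.37), whereas the dimmer one, which alone lists RefSeq transcripts of Hk1, had 0.28 and 0.32 (adjusted p = 0.0016 and 0.0081) and was called higher at both times.

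All 3 phosphofructokinase isozymes had positive log2 ratios at both times. Pfkl, the liver isozyme, had the largest ratio of any member at both times. Its signals were 9.59, 9.63, 9.67, 9.75 and 9.96 in the invading samples of 96 hours, against 8.90, 9.16, 9.17, 9.48 and 9.15 in the non-invading ones. At 72 hours they were 10.28, 10.17, 9.99 and 9.83 in the invading samples of 72 hours, against 9.68, 9.71, 9.38 and 9.10 in the non-invading ones. The fractions did not overlap at either time (log2 ratio 0.55, SE 0.1, adjusted p = 0.0027 at 96 hours; log2 ratio 0.60, SE 0.15, adjusted p = 0.022 at 72 hours).

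The muscle isozyme Pfkm was also higher in the invading fraction. Its signals were 9.26, 9.40, 9.36, 9.22 and 9.47 in the invading samples of 96 hours, against 9.0, 9.10, 8.99, 9.0 and 9.04 in the non-invading ones. At 72 hours they were 9.20, 9.21, 9.19 and 9.24 in the invading samples of 72 hours, against 8.84, 8.89, 8.79 and 8.70 in the non-invading ones. Again no sample of 1 fraction reached the other (log2 ratio 0.32, SE 0.058, adjusted p = 0.0021 at 96 hours; log2 ratio 0.41, SE 0.063, adjusted p = 0.003 at 72 hours). Pfkp, the platelet isozyme, read 8.93, 8.95, 9.03, 8.98 and 9.03 in the invading samples of 96 hours, against 8.67, 8.60, 8.76, 8.84 and 8.73 in the non-invading ones, without overlap (log2 ratio 0.26, SE 0.055, adjusted p = 0.0046). At 72 hours it read 8.81, 8.54, 8.80 and 8.53 in the invading samples of 72 hours, against 8.56, 8.45, 8.46 and 8.52 in the non-invading ones. There 2 invading samples lay just below the highest non-invading one, and the gene was not called (log2 ratio 0.17, adjusted p = 0.19).

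Between phosphofructokinase and pyruvate kinase, Aldoa, Tpi1, Pgk1 and Pgam1 were called at 96 hours alone. Their log2 ratios lay below those of Hk2, Pfkl and Pfkm at each time, a difference that was not tested. At 96 hours the aldolase Aldoa had a log2 ratio of 0.19, the triosephosphate isomerase Tpi1 0.17, the phosphoglycerate kinase Pgk1 0.22 and the phosphoglycerate mutase Pgam1 0.24, with adjusted p-values of 0.025 to 0.064. At 72 hours the same 4 genes had log2 ratios of 0.11 to 0.13 and none was called. Aldoc, a minor aldolase of dim signal, and Eno2, the neuronal enolase, were called at neither time (log2 ratios -0.19 and 0.08 at 96 hours). Pgk1 and Pgam1 each have 3 probe sets, 2 of which hold identical values, and near-identical copies of these genes may share their probes, so their values are less certain. The call of Pgk1 at 96 hours was lost without any 1 of 6 samples (invading replicates 2, 3, 4 and 5, non-invading replicates 1 and 5), that of Pgam1 without any 1 of 4 (invading replicate 4, non-invading replicates 1, 3 and 5) and that of Tpi1 without non-invading replicate 5, with adjusted p-values up to 0.14.

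Pkm, the pyruvate kinase that ends glycolysis, was higher at both times. Its signals were 11.47, 11.46, 11.42, 11.48 and 11.45 in the invading samples of 96 hours, against 11.16, 11.12, 10.97, 11.26 and 11.14 in the non-invading ones. At 72 hours they were 11.76, 11.66, 11.42 and 11.53 in the invading samples of 72 hours, against 11.43, 11.39, 11.29 and 11.25 in the non-invading ones. The fractions were apart at 96 hours and touched at 72 hours, where the lowest invading sample lay just under the highest non-invading one (log2 ratio 0.32, SE 0.056, adjusted p = 0.0016 at 96 hours; log2 ratio 0.25, SE 0.087, adjusted p = 0.074 at 72 hours). The call at 72 hours was lost without any 1 of 5 samples (invading replicates 1 and 2, non-invading replicates 2, 3 and 4), with adjusted p-values up to 0.17.

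The lactate dehydrogenase isozymes Ldha and Ldhb had log2 ratios of opposite sign. Ldha, whose product favours lactate formation, read 12.52, 12.47, 12.44, 12.49 and 12.46 in the invading samples of 96 hours, against 12.53, 12.52, 12.52, 12.79 and 12.57 in the non-invading ones. The earlier signals were 12.42, 12.39, 12.33 and 12.32 in the invading samples of 72 hours, against 12.66, 12.64, 12.50 and 12.47 in the non-invading ones. All invading samples were below all non-invading ones at 72 hours (log2 ratio -0.20, SE 0.068, adjusted p = 0.066), and at 96 hours the ranges met and the gene was not called (log2 ratio -0.11, SE 0.061, adjusted p = 0.21). The call at 72 hours was among the least stable: it was lost after centring and without any 1 of 5 samples (invading replicates 2, 3 and 4, non-invading replicates 1 and 2), with adjusted p-values up to 0.30. Ldhb, the isozyme of oxidative tissues, had log2 ratios of 0.15 and 0.11 at 96 and 72 hours and was called at neither time in its brightest probe set, while its dimmer probe set was called higher at both (log2 ratios 0.26 and 0.28).

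**Figure D2:**
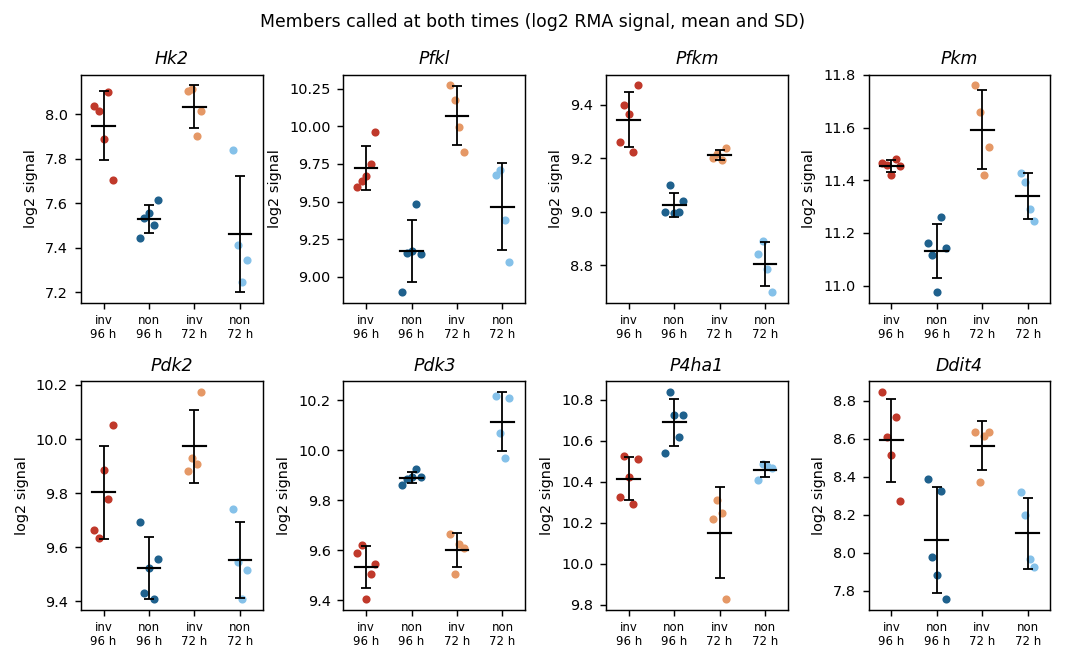
Log2 signal (vertical axis) of the 8 members called in the same direction at both times, with 1 point per sample, the mean as a horizontal line and the SD as a bar, for invading (inv) and non-invading (non) samples of 96 and 72 hours. Hk2, Pfkl, Pfkm, Pkm, Pdk2 and Ddit4 are higher in the invading samples, Pdk3 and P4ha1 lower.

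Of the 4 glucose and lactate transporters, 1 was called at 96 hours and 0 at 72 hours, where 31.4% and 26.5% of all genes were called in either direction. Slc2a1, the widespread glucose transporter, read 10.80, 11.11, 10.91, 11.12 and 10.85 in the invading samples of 96 hours, against 10.49, 10.75, 10.58, 10.92 and 10.78 in the non-invading ones. After 72 hours it read 10.98, 11.04, 10.68 and 10.70 in the invading samples of 72 hours, against 10.95, 11.03, 10.79 and 10.82 in the non-invading ones. The samples overlapped at both times, and the gene was called higher at 96 hours (log2 ratio 0.25, SE 0.094, adjusted p = 0.068) but not at 72 hours (log2 ratio -0.05, SE 0.1, adjusted p = 0.78); the call at 96 hours was lost without any 1 of 4 samples (invading replicates 2 and 4, non-invading replicates 1 and 3), with adjusted p-values up to 0.15. Slc2a3, the second glucose transporter listed, stayed dim, at 5.60 to 6.09 in every sample, and had log2 ratios of 0.14 and 0.19 at 96 and 72 hours. The lactate exporters Slc16a1 and Slc16a3 had log2 ratios of 0.04 and 0.03 at 96 hours, with 95% intervals of -0.12 to 0.19 and -0.09 to 0.15, and of -0.12 and -0.08 at 72 hours, where neither was called.

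The pyruvate dehydrogenase kinases went different ways, and each isoform had its own pattern. Pdk2 read 9.66, 9.63, 9.88, 9.78 and 10.05 in the invading samples of 96 hours, against 9.70, 9.43, 9.52, 9.41 and 9.56 in the non-invading ones. At 72 hours it read 9.88, 9.93, 9.91 and 10.18 in the invading samples of 72 hours, against 9.74, 9.54, 9.41 and 9.52 in the non-invading ones. It was higher at both times, with the samples apart at 72 hours and meeting at 96 hours (log2 ratio 0.28, SE 0.087, adjusted p = 0.035 at 96 hours; log2 ratio 0.42, SE 0.094, adjusted p = 0.015 at 72 hours). Pdk3, another isoform, read 9.59, 9.62, 9.40, 9.50 and 9.55 in the invading samples of 96 hours, against 9.86, 9.88, 9.89, 9.93 and 9.89 in the non-invading ones. The earlier signals were 9.66, 9.50, 9.63 and 9.61 in the invading samples of 72 hours, against 10.21, 10.07, 9.97 and 10.21 in the non-invading ones. Its fractions were far apart at both times, with the invading samples below (log2 ratio -0.36, SE 0.052, adjusted p = 0.00058 at 96 hours; log2 ratio -0.51, SE 0.077, adjusted p = 0.0026 at 72 hours), and it had the smallest adjusted p of any member at each time.

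Pdk4, the isoform induced in fasting, was called at 96 hours alone. Its signals were 10.03, 10.39, 10.37, 10.25 and 10.07 in the invading samples of 96 hours, against 9.59, 9.81, 9.85, 10.12 and 9.74 in the non-invading ones. At 72 hours they were 10.47, 10.36, 10.35 and 10.30 in the invading samples of 72 hours, against 10.64, 10.49, 10.25 and 10.47 in the non-invading ones. At 96 hours it was higher in the invading fraction with some overlap (log2 ratio 0.40, SE 0.1, adjusted p = 0.015), whereas the log2 ratio at 72 hours was -0.09 (adjusted p = 0.51). Pdk1, the isoform best known as a HIF-1 target, read 7.91, 8.14, 8.05, 8.24 and 8.08 in the invading samples of 96 hours, against 7.51, 8.12, 8.16, 8.29 and 8.06 in the non-invading ones. After 72 hours it read 8.25, 8.14, 8.37 and 8.13 in the invading samples of 72 hours, against 8.32, 8.21, 8.03 and 8.36 in the non-invading ones. The ranges of Pdk1 overlapped widely and it was called at neither time, with log2 ratios of 0.05 (95% interval -0.23 to 0.34) at 96 hours and -0.01 (-0.22 to 0.20) at 72 hours.

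Of the bifunctional enzymes that make and break fructose 2,6-bisphosphate, Pfkfb3, the isoform with the highest kinase activity, read 7.85, 7.98, 7.97, 7.91 and 8.05 in the invading samples of 96 hours, against 7.30, 7.59, 7.82, 7.68 and 7.70 in the non-invading ones. At 72 hours it read 7.72, 7.80, 8.01 and 8.07 in the invading samples of 72 hours, against 7.49, 7.28, 7.54 and 7.94 in the non-invading ones. Its log2 ratio was 0.33 at each time, but the fractions were apart and the gene called at 96 hours alone (SE 0.089 and adjusted p = 0.018 at 96 hours, SE 0.14 and adjusted p = 0.13 at 72 hours). Pfkfb4 was called at neither time (log2 ratios -0.03 and 0.15 at 96 and 72 hours).

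In the main fits the mRNA of neither HIF subunit was called between the fractions. Hif1a read 11.43, 11.36, 11.37, 11.43 and 11.15 in the invading samples of 96 hours, against 11.09, 11.25, 11.36, 11.32 and 11.31 in the non-invading ones. The earlier signals were 11.20, 11.04, 11.41 and 11.09 in the invading samples of 72 hours, against 11.35, 11.26, 11.49 and 11.49 in the non-invading ones. The fractions overlapped and the mean difference had opposite signs at the 2 times, 0.09 at 96 hours (95% interval -0.07 to 0.24) and -0.21 at 72 hours (-0.43 to 0.01). Epas1 had log2 ratios of 0.11 and 0.21 at 96 and 72 hours (adjusted p = 0.32 and 0.19). Some alternatives did call these genes. Epas1 was called at both times after centring and after a further quantile normalization, and at 72 hours without non-invading replicate 4. Hif1a was called at 96 hours after centring, and at 72 hours in 1 fit over all 18 samples and without invading replicate 3.

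The oxygen sensors differed from each other at 96 hours. Egln3, the prolyl hydroxylase that HIF itself induces, read 8.16, 8.16, 8.05, 8.14 and 8.07 in the invading samples of 96 hours, against 7.44, 7.34, 7.34, 8.0 and 7.86 in the non-invading ones. After 72 hours it read 8.09, 8.22, 8.11 and 7.95 in the invading samples of 72 hours, against 8.41, 8.44, 8.02 and 7.86 in the non-invading ones. The 5 invading samples of 96 hours were tightly grouped above the non-invading ones, 3 of which stood far below the other two (log2 ratio 0.52, SE 0.13, adjusted p = 0.011), and at 72 hours the groups overlapped (log2 ratio -0.09, SE 0.13, adjusted p = 0.69). Egln1, the main sensor in most cells, was lower in the invading fraction at 96 hours without overlap (9.04 ± 0.05 against 9.24 ± 0.02, SD, n = 5 each; log2 ratio -0.21, SE 0.045, adjusted p = 0.0059), a call that centring ended (adjusted p = 0.13), and had a log2 ratio of -0.13 at 72 hours (adjusted p = 0.21).

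Among the 10 other hypoxia response genes, 2 were higher and 1 was lower at each time. Over all genes 31.4% were called at 96 hours and 26.5% at 72 hours, in either direction. Egln3 and the glycolytic genes that HIF induces are counted under other roles. Vegfa, the angiogenic growth factor and a classical HIF target, read 9.33, 9.31, 9.25, 9.43 and 9.08 in the invading samples of 96 hours, against 9.24, 9.33, 9.06, 9.28 and 9.20 in the non-invading ones. At 72 hours it read 9.32, 9.34, 9.18 and 9.02 in the invading samples of 72 hours, against 9.36, 9.17, 9.20 and 9.15 in the non-invading ones. Its log2 ratio was 0.06 at 96 hours (95% interval -0.11 to 0.22) and 0.00 at 72 hours (-0.20 to 0.20). Neither Ankrd37 nor Ndrg1, both induced in low oxygen, nor the demethylase Kdm3a, the mitophagy receptor Bnip3l or the repressor Mxi1 was called at either time, with log2 ratios of -0.18 to 0.13 at 96 hours and -0.22 to 0.16 at 72 hours. Bnip3, the other mitophagy receptor, was called higher at 96 hours (log2 ratio 0.18, adjusted p = 0.085) in its brightest probe set and not in the dimmer one (log2 ratio 0.10, adjusted p = 0.41). At 72 hours the dimmer one was called higher (log2 ratio 0.23, adjusted p = 0.081) and the brightest was not (log2 ratio 0.17, adjusted p = 0.12). The call of the brightest probe set at 96 hours was also lost without any 1 of 6 samples (invading replicates 1, 2 and 4, non-invading replicates 1, 2 and 3), with adjusted p-values up to 0.18.

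Ddit4 (REDD1), an inhibitor of mTORC1 that low oxygen and other stresses induce, was the hypoxia response gene with the largest difference at 72 hours and shared that place with Egln3 at 96 hours. It read 8.85, 8.61, 8.51, 8.71 and 8.27 in the invading samples of 96 hours, against 8.39, 7.98, 7.88, 8.33 and 7.76 in the non-invading ones. The earlier signals were 8.63, 8.37, 8.61 and 8.64 in the invading samples of 72 hours, against 8.32, 8.20, 7.96 and 7.92 in the non-invading ones. The fractions were apart at 72 hours, and at 96 hours 1 invading sample lay below 2 non-invading ones (log2 ratio 0.52, SE 0.14, adjusted p = 0.017 at 96 hours; log2 ratio 0.46, SE 0.11, adjusted p = 0.016 at 72 hours).

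The collagen prolyl 4-hydroxylases, which low oxygen induces and which hydroxylate newly made collagen, moved apart. P4ha1 read 10.32, 10.53, 10.43, 10.29 and 10.51 in the invading samples of 96 hours, against 10.54, 10.84, 10.73, 10.62 and 10.73 in the non-invading ones. After 72 hours it read 10.22, 10.31, 10.25 and 9.83 in the invading samples of 72 hours, against 10.41, 10.49, 10.47 and 10.47 in the non-invading ones. The invading samples of each time were the lower ones, without overlap (log2 ratio -0.28, SE 0.071, adjusted p = 0.014 at 96 hours; log2 ratio -0.31, SE 0.1, adjusted p = 0.068 at 72 hours), although the call at 72 hours was lost after centring and without any 1 of non-invading replicates 2, 3 and 4 (adjusted p up to 0.15). P4ha2 had the opposite sign: it read 8.39, 8.47, 8.47, 8.23 and 8.83 in the invading samples of 96 hours, against 8.24, 8.30, 8.22, 8.20 and 8.29 in the non-invading ones. At 72 hours it read 8.63, 8.67, 8.38 and 8.27 in the invading samples of 72 hours, against 8.30, 8.16, 8.18 and 8.23 in the non-invading ones. It was called higher at 72 hours (log2 ratio 0.27, SE 0.098, adjusted p = 0.087), and its log2 ratio of 0.22 at 96 hours missed the threshold (adjusted p = 0.1); leaving out any 1 of 5 samples (invading replicates 1 and 2, non-invading replicates 2, 3 and 4) ended the call at 72 hours, with adjusted p-values up to 0.20. The collagen genes Col1a1, Col1a2 and Col3a1, taken here as fibroblast markers, had lower signals in invading samples of both times (log2 ratios -0.35 to -0.20 at 96 hours).

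HIF binds the core RCGTG, so the promoter sequences of the members called in the same direction at both times were searched for ACGTG and GCGTG on both strands. The windows, credited to RefSeq with the build GRCm38.p6, run from 250 bases before to 50 after a transcript start. The 5 members with the largest mean ratios among those that hold the core are shown, each with up to 30 bases before the first core and after the last, written on the strand of the gene with the cores in capitals (CACGT and CACGC are cores of the opposite strand, and in Pfkm the E-box CACGTG holds the core on both strands).
Pfkl, chr10:78009872-78009936, strand -: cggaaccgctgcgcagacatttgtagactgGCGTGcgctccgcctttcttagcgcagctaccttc
Hk2, chr6:82774472-82774704, strand -: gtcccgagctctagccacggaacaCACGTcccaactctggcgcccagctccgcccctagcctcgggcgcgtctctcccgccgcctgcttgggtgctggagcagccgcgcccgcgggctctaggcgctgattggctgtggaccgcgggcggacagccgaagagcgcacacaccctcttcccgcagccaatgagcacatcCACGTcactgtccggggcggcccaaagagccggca
Ddit4, chr10:59951851-59951987, strand -: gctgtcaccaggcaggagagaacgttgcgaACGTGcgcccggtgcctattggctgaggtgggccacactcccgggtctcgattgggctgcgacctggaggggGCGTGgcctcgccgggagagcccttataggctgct
Pdk3, chrX:93832169-93832343, strand -: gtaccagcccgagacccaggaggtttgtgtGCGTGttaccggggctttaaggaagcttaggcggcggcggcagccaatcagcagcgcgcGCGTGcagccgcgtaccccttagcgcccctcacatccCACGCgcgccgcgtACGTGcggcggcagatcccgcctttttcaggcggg
Pfkm, chr15:98092423-98092488, strand +: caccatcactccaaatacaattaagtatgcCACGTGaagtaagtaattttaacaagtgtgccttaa
The core of Pfkl ended 95 bases before the start, the 2 cores of Hk2 ended 222 and 48 bases before it, the 2 of Ddit4 183 and 111 bases before it, and Pdk3, which was lower in invading cells, held 4, the nearest 49 bases before the start. At least 1 window held a core in 6 of 6 members higher at both times and in 2 of 2 lower at both times. The same was true of 12 of 13 listed members called at neither time. Because nearly all members held a core, these counts could not separate the members by direction. Over all members with an entry, 34 of 37 genes (91.9%) held a core, against 46.7% of 27025 genes. By windows the shares were 76.8% of 56 for the members and 43.8% of 32851 among all promoters, and for cores outside an E-box 75% and 40.4%. The core contains the pair CG, of which the members' windows held a median of 21 and all windows a median of 7; the part of base composition in the shares was not tested. A match of 5 letters is a description of the sequence and not a binding site, and whether HIF was bound was not measured.

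Over time 7 members were called in the invading and 12 in the non-invading fraction. In the invading fraction 4 members were higher at 96 than at 72 hours (10.5%, against 18.2% of all genes) and 3 lower (7.89%, against 16.7%), while 34.8% of all genes were called in either direction. In the non-invading fraction 5 were higher (13.2%, against 15.4%) and 7 lower (18.4%, against 12.2%), while 27.6% of all genes were called. These comparisons set different cultures beside each other, and any difference between the 2 sets of experiments cannot be told apart from time. After a further quantile normalization the invading fraction had 3 higher and 8 lower members (15.5% and 18.7% of all genes) and the non-invading fraction 4 and 12 (13.1% and 17.4%). After centring they were 5 and 1 in the invading fraction (18.8% and 12.4% of all genes), and 4 and 8 in the non-invading fraction (13.3% and 12.7%).

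Hk1, Pfkm, Pfkp and P4ha1 were higher and Aldoa and Epas1 lower at 96 hours in both fractions. Epas1, which encodes HIF-2alpha, read 6.18, 6.05, 6.43, 6.42 and 6.15 in the invading samples of 96 hours, against 6.59, 6.58, 6.83 and 6.63 in those of 72 hours (log2 ratio -0.41, SE 0.093, adjusted p = 0.0032). In the non-invading fraction it read 6.14, 6.08, 6.21, 6.16 and 6.07 at 96 hours, against 6.22, 6.47, 6.43 and 6.67 at 72 hours (log2 ratio -0.31, SE 0.093, adjusted p = 0.023). All samples of 96 hours were below all of 72 hours in each fraction, at dim signals throughout. Hk1 in its brightest probe set read 13.12, 13.12, 13.07, 13.17 and 13.17 in invading samples of 96 hours, against 12.99, 12.90, 13.01 and 12.89 in those of 72 hours (log2 ratio 0.18, SE 0.049, adjusted p = 0.011). In non-invading samples it read 13.04, 13.06, 13.15, 13.22 and 13.10 at 96 hours, against 12.81, 12.85, 12.87 and 12.92 at 72 hours (log2 ratio 0.25, SE 0.049, adjusted p = 0.0016). The dimmer probe set of Hk1 was called in neither fraction (log2 ratios 0.06 and 0.10 in invading and non-invading samples), so the change over time rests on the brightest. Pfkp, whose samples are given above, had log2 ratios over time of 0.31 in the invading and 0.22 in the non-invading fraction, again without overlap. Those of Aldoa were -0.17 and -0.25, those of Pfkm 0.13 and 0.22, and those of P4ha1 0.26 and 0.23. The call of Aldoa in the invading fraction was lost after centring, and that of P4ha1 there without invading replicate 4 of 72 hours (adjusted p = 0.14). The calls of Pfkm in the invading fraction and of P4ha1 in the non-invading fraction were lost under 18 and 10 of 28 alternatives. That of Pfkm was lost after quantile normalization (adjusted p = 0.44), without any 1 of 7 invading samples (all 4 of 72 hours, replicates 2, 3 and 5 of 96 hours) and without any 1 of 7 non-invading samples (replicates 1 and 3 of 72 hours, all 5 of 96 hours). That of P4ha1 was lost under both scalings and without any 1 of 7 non-invading samples (all 4 of 72 hours, replicates 2, 3 and 5 of 96 hours), with adjusted p-values up to 0.16.

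The largest changes over time were falls in the non-invading fraction. Pdk4, given by sample above, averaged 9.82 ± 0.19 at 96 hours and 10.46 ± 0.16 at 72 hours there (SD, n = 5 and 4; log2 ratio -0.64, SE 0.1, adjusted p = 0.00034), with no overlap, against a log2 ratio of -0.15 in the invading fraction (adjusted p = 0.33). Egln3 averaged 7.60 ± 0.31 at 96 hours and 8.18 ± 0.29 at 72 hours in the non-invading fraction (log2 ratio -0.58, SE 0.14, adjusted p = 0.0062), where the highest sample of 96 hours overlapped the lowest of 72 hours, against a log2 ratio of 0.02 in the invading fraction (adjusted p = 0.94). The lactate exporter Slc16a1 read 9.52, 9.55, 9.71, 9.76 and 9.55 in non-invading samples of 96 hours, against 9.89, 9.77, 9.87 and 10.05 in those of 72 hours (log2 ratio -0.28, SE 0.075, adjusted p = 0.014). In invading samples it read 9.82, 9.62, 9.64, 9.64 and 9.55 at 96 hours, against 9.73, 9.65, 9.92 and 9.80 at 72 hours (adjusted p = 0.26). Pdk3 and Pkm were also lower at 96 hours in the non-invading fraction alone (log2 ratios -0.22 and -0.21), Kdm3a was higher there (0.25), and Pfkl was lower in the invading fraction alone (-0.35, adjusted p = 0.066, against -0.30 and 0.13 in the non-invading fraction). Of these, Pfkl was lost after centring and without any 1 of 5 invading samples (replicates 1 and 2 of 72 hours, 1, 2 and 3 of 96 hours), Pkm without any 1 of 3 non-invading samples (replicates 1 and 2 of 72 hours, 3 of 96 hours) and Kdm3a without non-invading replicate 2 of 72 hours, with adjusted p-values up to 0.19.

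**Figure D3:**
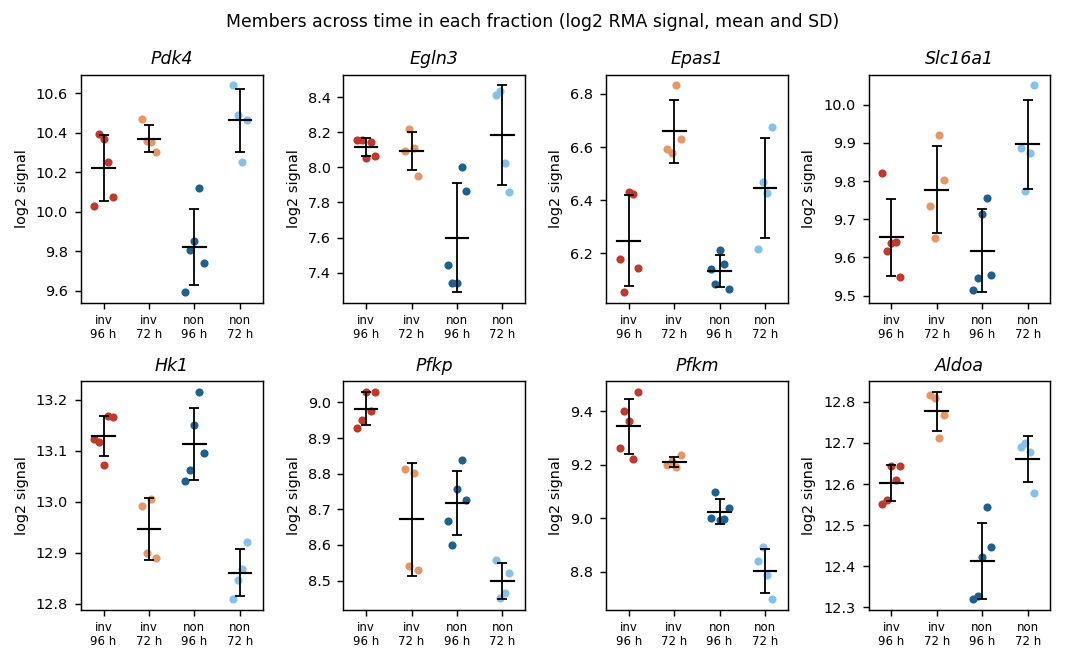
Log2 signal (vertical axis) of 8 members across time, with 1 point per sample, the mean as a horizontal line and the SD as a bar, for 96 and 72 hours in the invading (inv) and non-invading (non) fraction. Pdk4, Egln3 and Slc16a1 were called lower at 96 hours in the non-invading fraction alone, Epas1 and Aldoa in both, and Hk1, Pfkp and Pfkm were called higher in both.

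A call in 1 fraction or at 1 time does not show a difference between them, so the difference itself was tested, as the log2 ratio of invading over non-invading at 96 hours minus that at 72 hours. No member passed in limma, and 3 of 19938 genes did (0.0150%). At an unadjusted p under 0.05 in limma the members numbered 3 of 38 and all genes 1623 of 19938, a similar share. Those 3 members were Egln3 (0.61, SE 0.2, adjusted p = 0.37), Pdk4 (0.49, SE 0.14, adjusted p = 0.32) and Hif1a (0.30, SE 0.12, adjusted p = 0.5). The rise in the number of members called, 19 at 96 hours against 10 at 72 hours, stands beside a rise over all genes, 31.4% against 26.5%, with 5 samples per fraction in place of 4.

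Other genes of these pathways were taken from lists beside the members. Of 32 further hypoxia-induced genes, 11 were higher in invading cells and 7 lower at 96 hours, with 9 and 7 at 72 hours. That is 34.4% higher and 21.9% lower at 96 hours, against 16.7% and 14.7% of all genes. At 72 hours the shares were 28.1% and 21.9%, against 13.0% and 13.5% of all genes. Adm (adrenomedullin), a vasoactive peptide that low oxygen induces, had the largest ratio of any gene on these lists and was lower in invading cells: it averaged 9.10 ± 0.23 and 10.39 ± 0.66 in invading and non-invading samples of 96 hours and 8.80 ± 0.19 and 9.95 ± 0.24 in those of 72 hours (SD, n = 5 and n = 4 each; log2 ratios -1.29 and -1.15, adjusted p = 0.0047 and 0.0011). Wsb1, part of a ubiquitin ligase, was also lower (-0.37 and -0.63). The transcriptional repressor Bhlhe40 (0.69 and 0.42) and the heme oxygenase Hmox1 (0.50 and 0.60) were higher at 96 and 72 hours.

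Of 12 other regulators of HIF, 3 were higher (25%) and 3 lower (25%) at 96 hours, with 1 (8.33%) and 2 (16.7%) at 72 hours, beside the same shares of all genes. Cul2, the scaffold of the VHL ubiquitin ligase, was lower at both times (-0.20 and -0.28 at 96 and 72 hours), Os9 was higher at both (0.21 and 0.22), Eloc, another subunit of that ligase, was lower at 72 hours (-0.40), and Arnt2, a relative of the HIF partner Arnt, was lower at 96 hours (-0.25). In the pentose phosphate pathway 1 of 7 genes was higher (14.3%) and 1 lower (14.3%) at 96 hours, with 3 (42.9%) and 1 (14.3%) at 72 hours. The transaldolase Taldo1 was higher at both times (0.46 and 0.34) and the epimerase Rpe lower at both (-0.32 and -0.51).

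Pyruvate entry into mitochondria had 2 of 10 genes higher (20%) and 1 lower (10%) at 96 hours, against 16.7% and 14.7% of all genes. At 72 hours 1 (10%) was higher and 1 (10%) lower, against 13.0% and 13.5% of all genes. Pcx, the pyruvate carboxylase that makes oxaloacetate, was higher at both times (0.41 and 0.58 at 96 and 72 hours), and Mpc1, a subunit of the pyruvate carrier, at 96 hours (0.26). Of 21 genes of the tricarboxylic acid cycle 5 were higher (23.8%) and 1 lower (4.76%) at 96 hours, with 5 (23.8%) and 0 at 72 hours. Among the higher ones were Idh2 (0.23 and 0.32), Ogdh (0.26 and 0.21) and Sdha (0.16 and 0.25). Of 23 genes of gluconeogenesis and minor isozymes 1 was higher (4.35%) and 1 lower (4.35%) at 96 hours, with 2 (8.70%) and 2 (8.70%) at 72 hours, with the transporter Slc2a10 lower at both times (-0.29 and -0.42). Scaling moved these counts. After centring, 14 of 21 cycle genes and 18 of 23 of the last list were higher at 96 hours, as were 12 of 14 glycolytic enzymes and 45.7% of all genes.

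Across time more of the mitochondrial genes were called than of the glycolytic enzymes, a difference that was not tested. At 96 over 72 hours in the invading fraction, 10 of 21 cycle genes were higher and 3 lower. Of 10 genes of pyruvate entry 5 were higher and 1 lower. Of 14 glycolytic enzymes 3 were higher and 2 lower, and of all genes 18.2% were higher and 16.7% lower. In the non-invading fraction the cycle had 8 higher and 4 lower and pyruvate entry 4 and 1 (15.4% of all genes higher and 12.2% lower). The mitochondrial lists were not alone in this. Of 12 other regulators of HIF, 6 were higher and 4 lower in the invading fraction, with 6 and 3 in the non-invading one. Of 7 pentose phosphate genes, 3 were higher and 3 lower in the invading fraction, with 2 and 1 in the non-invading one. Idh3a, a subunit of isocitrate dehydrogenase chosen after its value was seen, had the largest rise on these lists, with log2 ratios of 0.91 in the invading and 0.89 in the non-invading fraction. After a further quantile normalization 8 cycle genes were higher and 7 lower in the invading fraction, so the balance of that list depends on the scaling.

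**Figure D4:**
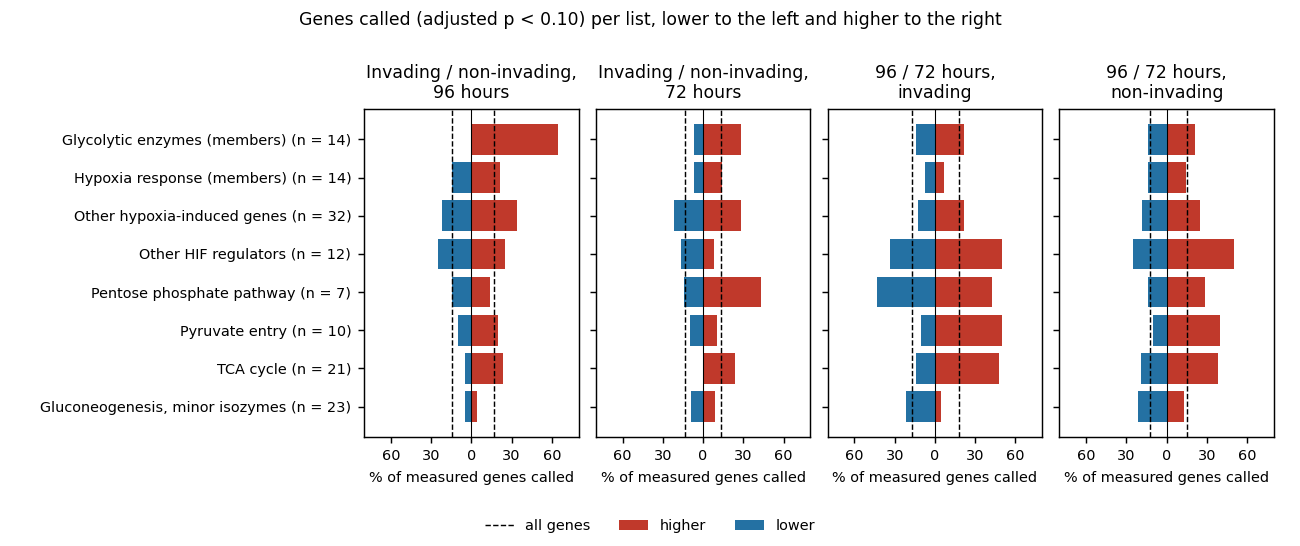
Percentage of the measured genes of each list called higher (red, to the right) or lower (blue, to the left) in the 4 comparisons, with dashed lines at the percentages over all genes. At 96 hours the bar of the glycolytic enzymes reaches 64.3% higher and 0% lower, against dashed lines at 16.7% and 14.7%.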

How the data were processed

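The log2 values deposited by the authors hold 1 column per sample for 35556 probe sets. The authors amplified total RNA with the Ambion WT Expression Kit, hybridized Affymetrix Mouse Gene 1.0 ST arrays and obtained RMA gene-level values with sketch-quantile normalization in Affymetrix Expression Console (version 1.2 in the submitters' processing notes). The values were used as deposited. Gene symbols came from the annotation of the platform: 21789 probe sets carry 1 symbol, 1621 several, and probe sets with several symbols name no gene here. The fractions were compared within each time with limma 3.58.1 in R 4.3.3 (lmFit and eBayes, two-sided, no covariates), following the study's methods. 1 fit over all 18 samples gave the comparisons of times and the difference between times. P-values were adjusted across all probe sets after Benjamini and Hochberg and called under 0.10. The scripts were tested on simulated data. The p-values measure the spread between samples of 1 cell line, with a precision limited by how many arrays there are.

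The members, the other gene lists and the tests were chosen with earlier results of these data known. Values by sample are given for the called members with the largest ratios (8 per comparison of fractions, 5 per comparison of times, some by mean and SD or in a figure) and for Hif1a, Slc2a1, Ldha, Pdk1 and Vegfa; from each other list up to 4 called genes with the largest ratios between fractions are named. The alternatives were a further quantile normalization, centring on array medians, only probe sets whose linear signal passed 100 in at least 1 sample, an intensity trend with robust estimation, a limit to probe sets with 1 symbol, an adjusted p under 0.05, a replicate block, the mean of all probe sets of a gene, other sets of samples in the fit, and leaving out each sample. The choice of the brightest probe set that lists a RefSeq transcript was added after seeing the data. Promoter windows are those of RefSeq for GRCm38.p6; 37 of 41 members had one, and Slc2a3, Epas1, Bnip3l and Ndrg1 had none.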

Additional observations from a re-analysis of the deposited data

Results flagged for a closer look

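In 7 of 152 sets of values (1 member in 1 group of 4 or 5 samples) the highest or lowest sample stood apart by Dixon's criterion at 95%; chance alone gives about 1 in 20. Of these, 3 fell on replicate 5 of the invading samples of 96 hours: Ldhb was highest there (10.19, next 9.92), Pfkfb4 was highest (7.43, next 7.28) and Hif1a lowest (11.15, next 11.36). Another 2 fell on replicate 4 of the non-invading samples of 96 hours, where Tpi1 (12.13, next 11.95) and Ldha (12.79, next 12.57) were highest. Among invading samples of 72 hours, Pdk2 was highest in replicate 4 (10.18, next 9.93) and Ddit4 lowest in replicate 2 (8.37, next 8.61).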

How the results depend on the processing

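No called member changed direction under any alternative. At 96 hours 13 of 19 calls between the fractions held under all alternatives, at 72 hours 6 of 10, over time in the invading fraction 2 of 7 and in the non-invading fraction 8 of 12. Higher members at 72 hours (7) numbered 13 after a further quantile normalization and 16 after centring; lower members (3) numbered 1 after centring, 1 at an adjusted p under 0.05 and 6 in 1 fit over all 18 samples. At 96 hours the 16 higher became 27 after centring and the 3 lower became 5 after quantile normalization. Lower members over time in the invading fraction (3) became 8 after quantile normalization and 1 after centring, and in the non-invading fraction the 7 lower became 12 after quantile normalization. The cause was not tested, except that the stricter threshold lowers counts by construction. Leaving out 1 sample gave 13 to 16 higher and 3 to 5 lower at 96 hours (5 without non-invading replicate 3), 5 to 8 and 1 to 4 at 72 hours (1 lower without non-invading replicate 2), 3 to 5 and 2 to 4 over time in the invading fraction, and 3 to 5 and 6 to 10 in the non-invading fraction (3 higher without non-invading replicate 2 of 72 hours). For the difference between times the count was 0 throughout. With the probe set of Hk1 that lists RefSeq transcripts, an alternative chosen after seeing the data, its 2 calls over time were lost.

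The same replicate numbers occur in both fractions. Samples of 1 number deviated together at r of 0.05 to 0.17 at 96 hours and -0.07 to 0.09 at 72 hours. At 96 hours the closest non-invading partner of invading replicates 1, 2, 4 and 5 was the sample of their own number. Replicate 3 lay closest to number 4. At 72 hours only replicate 2 was closest to its own number. The labels name no pairing and the main fits hold no block, but these values do not show that the samples are unpaired. With the replicate block 18 members were higher and 3 lower at 96 hours, 7 and 2 at 72 hours, 3 and 4 over time in the invading and 5 and 8 in the non-invading fraction, and 0 in the difference between times. With the block the calls of Ldha and P4ha2 at 72 hours (adjusted p = 0.10 and 0.11) and of Pfkm over time in the invading fraction (0.14) were lost, while Pfkfb3 at 72 hours (0.057), Ldhb and P4ha2 at 96 hours (0.099 and 0.077) and Eno2 over time in both fractions (0.091 and 0.081) were gained. The study's methods name no pairing for the genewise test of the arrays, although a legend names a paired test for array values of receptors. Signals near the array medians, as for Slc2a3, Aldoc and Epas1, limit what small ratios can show.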
